A study of Drosophila melanogaster with 3 samples.

Results

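The 9 genes described here encode factors of protein synthesis in Drosophila melanogaster: the elongation factors eEF1alpha1, eEF1alpha2 and eEF2, the initiation factors eIF4E1, eIF4A, eIF4B, eIF5B and eIF2alpha, and pAbp, the poly(A)-binding protein gene. They were taken by symbol from a gene table with 13962 protein-coding genes, and none lies on chromosome 4. Contacts of FMRP, the fly fragile X protein, with RNA were mapped by enhanced CLIP, in which ultraviolet light links protein to RNA before the protein is pulled down and its RNA sequenced. The series has 3 libraries from whole adult animals, 1 size-matched input labelled as all cells and 2 FMRP immunoprecipitates on FLAG beads labelled as intestinal progenitor cells. Each library came from 200 powdered flies, 100 male and 100 female. The sources used here do not give the genotype, how FMRP was tagged, which cells made the tagged protein or the age of the flies.

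Initiation brings the ribosome to the start codon of an mRNA. eIF4E binds the cap, eIF4A is the RNA helicase that unwinds the leader, and eIF4B stimulates that helicase. eIF2 carries the initiator tRNA, and phosphorylation of its alpha subunit lowers initiation, while eIF5B joins the ribosomal subunits. In elongation eEF1alpha delivers aminoacyl-tRNA to the ribosome and eEF2 moves the ribosome along by a codon. Cytoplasmic poly(A)-binding protein coats the tail of the mRNA and contacts the cap-binding complex. FMRP is known as a repressor of translation.

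The data are 60497 sites, each 1 nt wide with a strand and a score of the authors that has no stated unit, and 1829 target gene names. Site and target lists are single lists for the series, so depth is unknown, no value carries a spread between libraries, and no difference below was tested. The order of genes is therefore a description of these lists. A gene with 0 sites is a gene with none on the list, which does not show that FMRP made no contact with its RNA. The abundance of each mRNA was not measured here, and no count or score was adjusted for it beyond what the authors may have done. Markers of cell types were chosen with earlier results of these data known, so their shares are a description. Of the markers of intestinal progenitors, 6 of 9 were targets, with 77 sites in esg and 0 in Su(H). Markers of other cells of the animal were on the list too, so the RNA of the 9 genes cannot be given to a single cell type. Targets were 4 of 6 for enterocytes, 4 of 6 for germline and ovary, and 3 of 6 for muscle. They were 2 of 6 for enteroendocrine cells, 3 of 4 for fat body and 2 of 4 for neurons. Of all protein-coding genes 11.2% were targets. Progenitor markers had a median of 77 sites, and enterocyte markers, the next highest, 27.5. These counts were not adjusted for length of span. hdc, a progenitor marker, had 313 sites in 94451 nt, or 3.31 per kb. alphaTry, an enterocyte marker, had 43 in 860 nt, or 50 per kb. Per kb esg had 33.9, while the enterocyte markers nub and Myo31DF had 0 sites. The medians therefore do not rank the cell types. In the markers vas, Dh31 and elav every site also lay in another gene span.

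FMRP sites divided the 9 genes into those with many sites and those with none. pAbp had 157 sites, eEF2 119, eEF1alpha1 73 and eIF4A 52, and these 4 genes were the targets. eEF1alpha2, eIF4E1, eIF4B, eIF5B and eIF2alpha had 0 sites and were not on the target list. The share of targets was thus 44.4%, beside 11.2% of all protein-coding genes, and 16.4% of protein-coding genes had at least 1 site. The 9 genes were chosen with results of these lists known, so their share is a description.

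**Figure D1:**
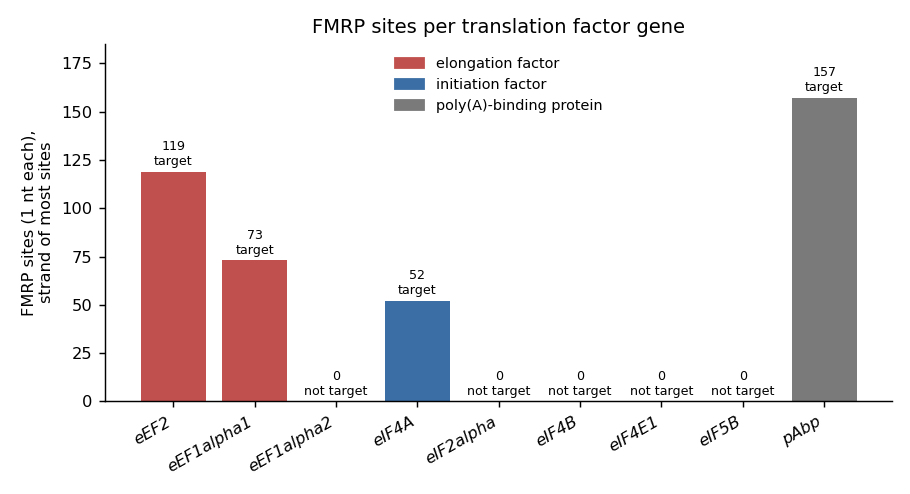
Number of FMRP sites (vertical axis, sites of 1 nt on the strand that carries most of them) in each of the 9 genes, coloured by role, with target status above each bar. eEF2 with 119 and eEF1alpha1 with 73 lead the elongation factors, eIF4A with 52 is the only initiation factor with a site, and pAbp has 157.

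Of the 9 genes, the elongation factors had a higher median number of sites than the initiation factors. On a wider list of translation factors medians could not show a difference, since most genes of both classes had 0 sites. These were 4 of 7 elongation and 31 of 40 initiation genes, so both medians were 0. The 7 elongation genes had 235 sites in all and the 40 initiation genes 265. Single genes held much of both totals: eEF2 had 119 of the 235, and eIF4G1, on chromosome 4, had 115 of the 265. Targets were 42.9% of the 7 and 17.5% of the 40, beside 11.2% of all protein-coding genes. Of the 3 elongation genes among the 9, 2 were targets, with a median of 73 sites and 192 in all. Of the 5 initiation genes 1 was a target, with a median of 0 and 52 sites in all, so no ratio of medians can be given. The classes overlapped, since eEF1alpha2 had 0 sites and eIF4A 52. Per length of gene the median elongation factor had 15.8 sites per kb of genomic span and the median initiation factor 0. Span did not follow the number of sites: eIF5B, with a span of 32320 nt, and eIF4B, with 15603 nt, had no site, whereas eIF4A had 52 in 4146 nt. Adding pAbp to the initiation factors left their median at 0.

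The genes with sites ranked high among all protein-coding genes. By number of sites pAbp ranked 67 of 13962, eEF2 97, eEF1alpha1 209 and eIF4A 313. Protein-coding targets had a median of 16 sites in the span (quartiles 7 and 41), and all 4 genes were above the upper quartile. By density the order was another: eEF2 had 28.0 sites per kb of span, pAbp 22.1, eEF1alpha1 15.8 and eIF4A 12.5. The median over the 1380 protein-coding targets with at least 5 sites was 3.05 per kb, with an upper quartile of 7.09, and eEF2 ranked 21 among them.

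Scores set the 4 genes apart from each other as well. eEF2 had a median score of 9.13, with quartiles of 3.41 and 15.0 and a highest value of 25.5. pAbp had a median of 6.63, with quartiles of 2.02 and 12.8 and a highest value of 34.3. eEF1alpha1 had a median of 4.90, with quartiles of 1.83 and 7.82 and a highest value of 37.4. That value lay in the gene of a snoRNA inside eEF1alpha1, and outside it the highest score was 21.97, below those of pAbp and eEF2. The base with 21.97 began a run of adjacent sites that continued into the snoRNA gene. Elsewhere outside that gene the highest score was 19.2. eIF4A had a median of 3.53, with quartiles of 1.44 and 5.34 and a highest value of 14.5. The ranges between quartiles of all 4 genes overlapped, and all 4 medians lay above the list's median of 2.78. In eEF2 62.2% of sites reached the list's upper quartile of 6.39, in pAbp 51.0%, in eEF1alpha1 43.8% and in eIF4A 19.2%. Among the 1380 targets with at least 5 sites, ranked by median score, eEF2 stood at 44, pAbp at 82, eEF1alpha1 at 156 and eIF4A at 322, where the median target had 2.30.

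**Figure D2:**
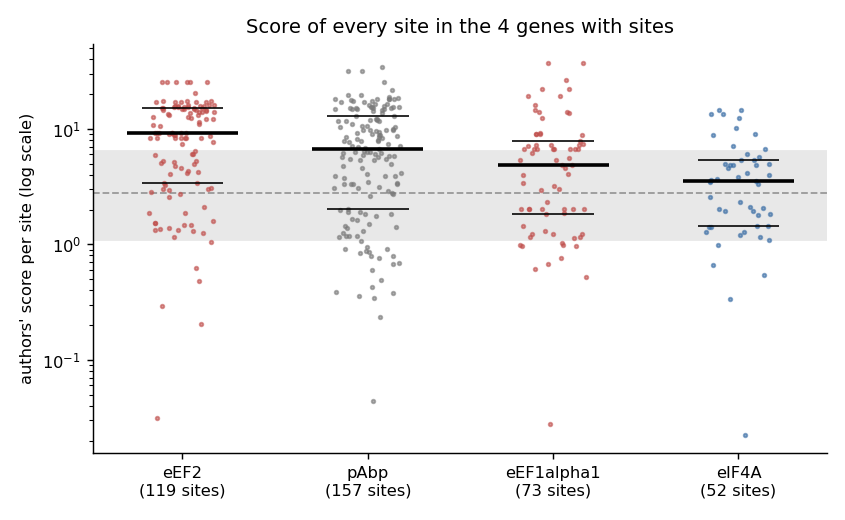
The authors' score of each site (vertical log axis, no stated unit) in the 4 genes with sites, 1 point per site with random sideways placement. Thick lines are medians and thin lines quartiles, the grey band spans the quartiles of all 60497 sites and the dashed line their median of 2.78. The medians fall from 9.13 in eEF2 to 3.53 in eIF4A.

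Strand was read from the sites, because the gene table used here gives none. eEF2 carried all 119 sites on the minus strand of 2L, and eIF4A all 52 on the plus strand of the same arm. eEF1alpha1 had all 73 on the plus strand of 2R. pAbp, also on 2R, had 157 on the plus strand and a single site on the minus strand, at 18144781 with a score of 6.48. Among the 1520 protein-coding genes with at least 5 sites in the span, 92.9% had all of them on 1 strand. Positions are given as in the site list, with the first base of a chromosome as 1. The list names no genome build, and its sites were assigned with Release 6 spans.

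pAbp sites reached from 18141382 to 18147083. The first 25 of them, read along the plus strand, lay within 260 nt and had a median score of 14.9. A stretch of 1156 nt without a site followed. The other 132 sites were spread over the next 4286 nt with a median score of 5.89. The group with most sites, counting sites no more than 10 nt apart as a group, held 11 between 18145825 and 18145847. The highest score, 34.3 at 18146256, lay in a group of 9 sites between 18146252 and 18146264 that carried 13.4% of the gene's summed score. Of the 157 sites, 13 fell in snoRNA:Psi18S-1347a, a small RNA that guides pseudouridylation of ribosomal RNA and whose gene lies within pAbp. That snoRNA is on the target list itself, and its sites, with a median score of 7.88, cannot be divided between the snoRNA and the pAbp transcript. The other snoRNA genes in pAbp, snoRNA:Psi18S-1347b and snoRNA:Psi18S-1347c, had 0 sites.

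eEF2 sites ran from 21682090 down to 21678219 along the minus strand. The first 21 lay within 49 nt, with a median score of 8.32, and were followed by 482 nt without a site. The remaining 98 sites had a median score of 11.6 over 3341 nt. The highest scores stood in a group of 8 sites between 21680588 and 21680596, with a median of 25.5, which carried 15.0% of the summed score. Merging sites up to 10 nt apart left 47 groups in eEF2, 51 in pAbp, 20 in eEF1alpha1 and 14 in eIF4A. Of the 119 sites, 2 lay in the gene of another small non-coding RNA.

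eEF1alpha1 sites were concentrated at a few places. The first 23 of the 73 sites lay in 58 nt between 11892122 and 11892179 on the plus strand, with a median score of 2.04. After 941 nt without a site, 6 sites stood between 11893121 and 11893126 and 10 between 11893138 and 11893152. The group of 10 held the highest score in the span, 37.4 at 11893150, and 32.4% of its summed score. Of these sites 14 fell in the gene of snoRNA:Me28S-A1322, a guide RNA for methylation of ribosomal RNA that lies within eEF1alpha1 and is a target in its own right. Without sites in that snoRNA eEF1alpha1 had 59 sites and a median score of 4.03. A last group of 6 sites between 11895443 and 11895448 carried 12.5% of the summed score.

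eIF4A sites fell at the ends of the stretch they covered. The first 23 of 52 lay within 195 nt from 5983020, with a median score of 4.83, and were followed by 832 nt without a site. The remaining 29 lay in 813 nt up to 5984859 and had a median of 1.94. The group of 9 sites between 5983191 and 5983214 held the highest score, 14.5, and 34.3% of the summed score. No other gene span crosses eIF4A, so its sites are not shared.

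Each of the 4 genes thus had a leading group of 21 to 25 sites, ahead of its first gap of more than 400 nt. The share of sites in that group was 15.9% in pAbp, 17.6% in eEF2, 31.5% in eEF1alpha1 and 44.2% in eIF4A. In pAbp and eIF4A the leading group had the higher median score, and in eEF2 and eEF1alpha1 the later sites did. The gap width that defines these groups was chosen after the positions were seen. Any gene with such a gap has a leading group, and other genes were not examined for one. Exons, introns and untranslated regions were not used here, and the gaps are genomic distances.

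**Figure D3:**
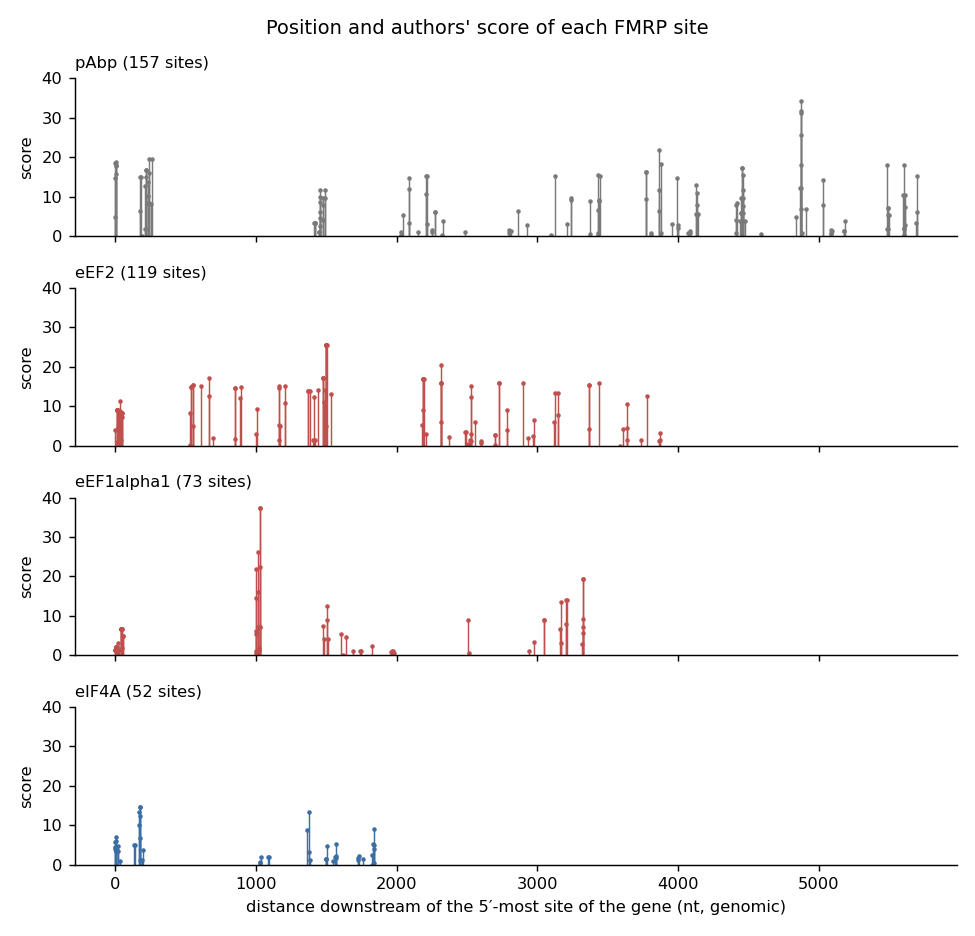
Each FMRP site of pAbp, eEF2, eEF1alpha1 and eIF4A as a line whose height is the authors' score (vertical axis, no stated unit), at its genomic distance in nt from the 5′-most site of the gene (horizontal axis, read along the strand of the sites). The leading groups of 25, 21, 23 and 23 sites stand at the left, ahead of gaps of 1156, 482, 941 and 832 nt.

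Sites often stood side by side in all 4 genes, as they did over the whole list. Runs of at least 2 adjacent bases held 83.4% of sites in pAbp, 80.8% in eIF4A, 76.7% in eEF1alpha1 and 74.8% in eEF2. A site on the next base followed 57.5% of sites in eEF1alpha1, 57.3% in pAbp, 55.8% in eIF4A and 48.7% in eEF2. Over the whole list that share was 49.3%, so adjacency is not particular to these genes. The longest run was 9 nt, in eIF4A from 5983020 to 5983028, and the longest in pAbp and eEF1alpha1 were 8 nt and in eEF2 7 nt. Sites in runs had higher median scores than isolated ones, 7.88 against 3.90 in pAbp, 9.26 against 4.71 in eEF2, 6.72 against 1.83 in eEF1alpha1 and 3.73 against 1.72 in eIF4A. Scores of adjacent bases differed by less than 1% in 48.3% of 58 pairs in eEF2 and 45.2% of 42 pairs in eEF1alpha1, so such sites do not count as separate measurements. In pAbp the share was 11.1% of 90 pairs and in eIF4A 10.3% of 29. Over the whole list 7.26% of adjacent pairs were that close.

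Among the 5 genes without sites were a copy and a partner of factors that had many. eEF1alpha2 encodes a second form of eEF1alpha, and with 0 sites it stood beside 73 in eEF1alpha1. Reads that match both copies could be lost or given to either, and the sources used here do not say how the authors treated such reads. eIF4B, the partner of the helicase eIF4A, had 0 sites, as did the cap-binding factor eIF4E1. None of the 5 spans had a site within 1000 nt outside it either. eIF2alpha overlaps the target gene rngo, whose 4 sites all lay outside the shared stretch. The spans of lncRNA:CR46482 and the pseudogene CR14578, which overlap eIF4B, had 0 sites.

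A wider list of 61 translation factor names placed the 9 genes in their pathway, of which 60 matched the gene table. In all 16 of the 60 genes were targets (26.7%, beside 11.2% of protein-coding genes), and the median gene had 0 sites, as did the median protein-coding gene. At least 5 sites were found in 16, beside 10.9% of protein-coding genes.

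Among 7 elongation genes 3 were targets (42.9%, beside 11.2% of all protein-coding genes). eEF1gamma, a subunit of the eEF1 complex, had 43 sites in all, a median score of 2.37 and 22.2 sites per kb of span. The other subunits eEF1beta and eEF1delta had 0 sites, and so did eEF5, the fly gene of the hypusine-bearing factor known elsewhere as eIF5A.

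Among 40 initiation genes 7 were targets (17.5%, beside 11.2% of all protein-coding genes). Sites were found in 9 and 31 had 0, while 16.4% of all protein-coding genes had at least 1 site. A gene without sites was thus the usual case over all genes as well. The cap-binding complex had its sites in the scaffold and the helicase: eIF4G1, the scaffold that joins eIF4E, eIF4A and poly(A)-binding protein, had 115 sites with a median score of 2.26, and eIF4A had 52. The cap-binding genes eIF4E3, eIF4E4, eIF4E5, eIF4E6 and eIF4E7 had 0 sites, as eIF4E1 did. eIF4H1, named as a homologue of a helicase cofactor, had 17 sites with a median score of 1.35. None of the 3 eIF2 subunit genes and none of the 5 eIF2B genes, whose complex recharges eIF2, had a site. Of 16 eIF3 genes 2 were targets (12.5%), close to the share over all protein-coding genes. These were eIF3b, with 49 sites and a median score of 3.69, and eIF3c, with 7 sites and 0.744. eIF3l had 2 sites without being a target. eIF1A, which works in start codon selection, had 13 sites with a median score of 1.03. eIF5, the GTPase activator of eIF2, was a target with 4 sites, all of them in the overlapping target gene CG46312. eIF4G2 had 6 sites, all in overlapping gene spans, and was not a target.

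Regulators and cofactors had 5 targets of 9 (55.6%, beside 11.2% of all protein-coding genes), with pAbp among them. NAT1, a relative of eIF4G that lacks its cap-binding partner site, had 75 sites with a median score of 2.22. Paip2, an inhibitor of poly(A)-binding protein, had 66 with a median of 3.81 and a highest score of 33.1. Gcn2, a kinase of eIF2alpha, had 15 with a median of 0.352, and eIF4EHP, a cap-binding protein that blocks initiation, had 10 with a median of 2.50. The eIF4E-binding protein gene Thor, cup, 4E-T and the eIF2alpha kinase gene PEK had 0 sites. Of 4 termination and rescue genes eRF3, the GTPase of termination, was a target with 25 sites and a median score of 3.09, and eRF1, pelo and HBS1 had 0. The 3 highest median scores of the wider list were those of eEF2, pAbp and eEF1alpha1.

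**Figure D4:**
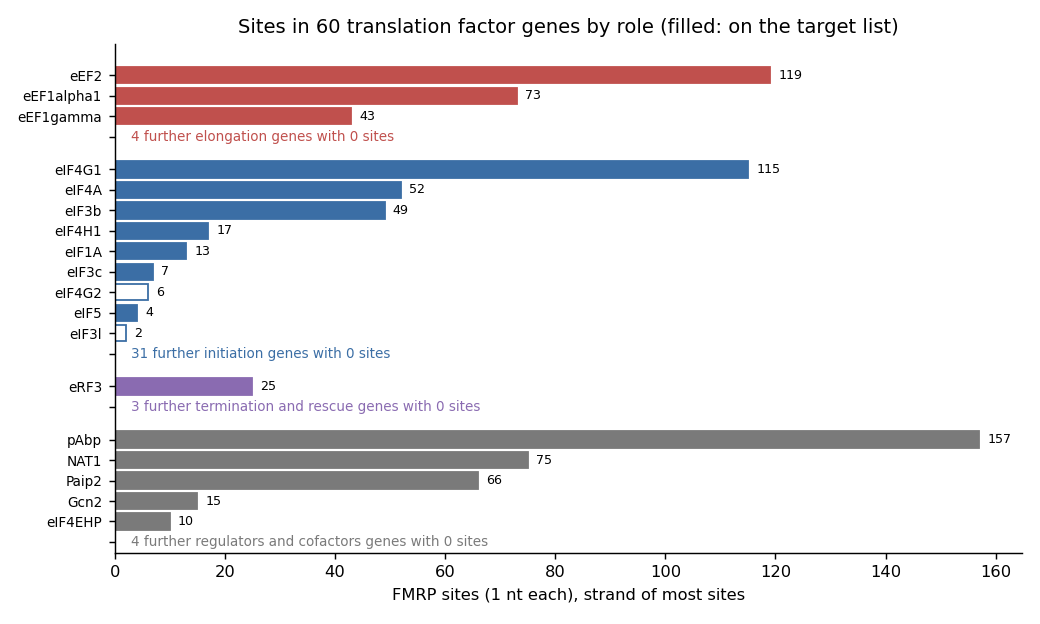
Number of FMRP sites (horizontal axis, sites of 1 nt on the strand that carries most of them) in the translation factor genes with at least 1 site, grouped by role, with filled bars for genes on the target list. Text lines give the number of genes with 0 sites, which is 31 of 40 for initiation and 4 of 7 for elongation. Of all protein-coding genes 16.4% had at least 1 site.

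Ribosomal protein genes, the other large class of the translation machinery, were set beside the 4 genes with sites. The 92 protein-coding genes whose symbols begin with RpL, RpLP or RpS and a number were counted as such, by symbol alone. Of these 60 were targets (65.2%, beside 11.2% of all protein-coding genes), with a median of 19.5 sites in the span. At least the 52 sites of eIF4A were found in 4 of the 92. The 58 of these targets with at least 5 sites had a median of their median scores of 4.54, with quartiles of 3.27 and 5.87. eEF2 and pAbp lay above that upper quartile, and 3 and 10 of the 58 had a median score at least as high as eEF2 and pAbp. eEF1alpha1 and eIF4A lay between the quartiles. Per kb of span the ribosomal targets had a median of 14.0 sites, and 3 of the 58 reached the density of eEF2. Several of these genes hold snoRNA genes or overlap others, so their counts are uncertain, and the differences were not tested.

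Target genes outside the wider translation factor list were set beside the 3 leading genes, and those most like each were named. Distance was taken over number of sites, sites per kb and median score. Each was on a log2 scale in units of its standard deviation over 1380 protein-coding targets. Nearest to pAbp was Fmr1, the gene of FMRP itself, at 0.318, with 147 sites and a median score of 7.78, followed by Lk6 at 0.445 and aqz at 0.448. Lk6 is a kinase of eIF4E. Nearest to eEF2 were the actin gene Act5C at 0.355, with 95 sites and a median score of 8.15, ATPsynC at 0.431, with 79 and 9.03, and Fmr1 at 0.499. Nearest to eEF1alpha1 were mlt at 0.273, glec at 0.278 and the chromatin factor gene Df31 at 0.305, with 58, 78 and 61 sites. Each distance says only that the counts and scores in this list were alike.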

How the data were processed

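A site list and a target list were used, both for the whole series. The authors deposited a list of 1 nt sites with a score of no stated unit, and a list of target names; a further column of the site list, other than the score, holds a constant. Per the submitters' processing notes, the tools were STAR 2.7.3a, SAMtools 1.10, cutadapt 2.9, DESeq2 and UMI-tools, whose roles are not listed. How sites and targets were called, on which build, and whether libraries were pooled is not given in the sources used here. Input may have entered the sites, which the submitters titled INnorm, but no method is stated. Depth is unknown.

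Names were matched to the NCBI RefSeq gene table of Release 6: 1753 targets by symbol, 65 by the synonym of a single gene and 11 by a locus tag chosen by hand. A site lay within the span of 1825 of the 1829 targets. Sites were counted per gene span on the strand with most sites, because the table gives spans without strand; the plan was to use the gene's own strand. Sites in overlapping genes were kept. The planned ratio of medians became a difference, because a median was 0. Medians, counts and ranks were computed with Python 3.11.15, pandas 2.3.3 and numpy 2.4.6. No test was run, since no value per library was used. Site counting was tested on simulated data. The members and lists were chosen with earlier results of these data known. Named were all members, the targets of the wider list and its other genes with at least 5 sites. For each of pAbp, eEF2 and eEF1alpha1 the 3 nearest targets outside the wider list were named too. Genes with fewer sites or 0 were named after their values were seen.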

Additional observations from a re-analysis of the deposited data

How the results depend on the processing

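The order pAbp, eEF2, eEF1alpha1, eIF4A by number of sites held with either strand counted and with only sites in no other gene span. It held too with a score minimum at the list's median or upper quartile, and with spans extended by 100 nt. Merging sites at gaps of up to 10 or 50 nt also kept it. The other 5 genes stayed at 0, which only the extended spans could have changed. The total of 401 sites became 196 at the upper quartile of the score, 132 groups at 10 nt and 69 groups at 50 nt. The difference between the median elongation and the median initiation factor, 73 sites, became 45 at the median score, 32 at the upper quartile, 20 groups at 10 nt and 13 groups at 50 nt. It was 36.5 without eEF2 and between 59.5 and 96 without any other elongation or initiation gene. These changes follow from counting fewer sites, groups or genes. Median scores kept their order when each group of sites was given its highest score and, in an alternative chosen after seeing the data, without sites in other gene spans. Of 97 alternative values 75 stayed within 1.5 times the main value and none reversed. That tally includes the genes with 0 sites, for which most settings can only return 0. The difference between elongation and initiation medians could not reverse either, because the initiation median was 0 in every setting. The tally is therefore no measure of how firm the results are. Counts per kb of coding length were not run, and the immunoprecipitates could not be left out in turn, because the lists hold no values per library. No paired analysis was possible because no result comes from a test between libraries.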

Other observations

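Few sites did not settle whether a gene was a target. Of the 767 protein-coding genes with 1 to 4 sites on the strand of most sites 23.3% were targets, and of the 1518 with at least 5 on that strand 90.9% were. Among translation factors eIF5, with 4 sites in 4 adjacent bases between 15988948 and 15988951 on X, was a target, and eIF4G2, with 6 sites between 23808450 and 23809967 on 3R, was not. In both genes every site also lay in the span of another gene. eIF4A had 12 further sites and pAbp 4 within 1000 nt outside their spans, on either strand, and eEF2 and eEF1alpha1 had 0.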
